A study of Mus musculus with 8 samples.

Results

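Matrix metalloproteinases (MMPs), the ADAMTS proteases and the tissue inhibitors of metalloproteinases (TIMPs) were followed as 1 family of genes in cells isolated from the testis of newborn mice. Members were the genes whose symbol is Mmp, Adamts or Timp followed by a number, reached through the RefSeq accession that each array probe carries. The gene table lists 46 such genes, and 43 of them had a probe, out of 19096 genes named on the array. Adamts17, Mmp1b and Mmp27 matched no probe and were not analysed here. Of the 43 genes, 37 were tested because at least 4 of the 8 arrays put them well above background, and 33 of these were so on all 8.

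MMPs are zinc proteases that cut collagens, laminins and other proteins of the extracellular matrix, most of them released as inactive precursors. ADAMTS proteases carry thrombospondin repeats that hold them in the matrix, where members trim procollagens, cleave proteoglycans such as versican and aggrecan, or act on microfibrils. TIMPs bind the active site of MMPs and of several ADAMTS proteases. In the testis, germ cells lie on a basement membrane built by Sertoli and peritubular cells, and stromal cells are a known source of many of these enzymes.

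The arrays compared 4 samples labelled Glis3KO2 (Glis3KO in the titles) with 4 samples of wild type (WT), all from Thy1-positive testis cells of C57BL/6 pups at postnatal day 4, left untreated. Glis3 is a zinc finger transcription factor, and the series concerns its role in spermatogenesis. Which part of Glis3 the Glis3KO2 allele lacks, and in which cells, is not stated in the labels used here. Thy1 on the cell surface serves to select spermatogonial stem and progenitor cells, and RNA was amplified from small amounts before Cy3 labelling. The design text speaks of 3 testes for each genotype although 4 samples of each are labelled, and no label ties a sample to an animal. The p-values therefore measure the spread among these samples, which may be technical. In such bulk samples fewer cells of a type and less RNA per cell cannot be told apart.

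Levels are the log2 of the processed spot signal minus that of the array's 75th percentile. A level can be compared between arrays for 1 probe but not between probes or genes. The 75th percentile ranged from 243 to 533 signal units over the 8 arrays. Glis3 itself had levels of -1.98, -2.18, -1.18 and -1.32 in Glis3KO2 replicates 1 to 4, against -1.09, -1.01, 0.57 and 0.60 in WT replicates 1 to 4. All 4 Glis3KO2 arrays lay below all 4 WT arrays, with a difference of -1.43 (SE 0.45), and of -0.62 without WT replicates 3 and 4. An exact two-sided permutation test gave p = 0.0286, the smallest that 70 labellings allow, while the adjusted p over all genes was 0.697 (limma).

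Cell type markers varied between the arrays. WT replicates 3 and 4 were the 2 highest in the germ cell sum and the 2 lowest in the stromal, smooth muscle, macrophage and endothelial sums. The 8 germ cell markers (Ddx4, Dazl and others) were well above background on all 8 arrays, and all 8 averaged lower in Glis3KO2. Their summed linear signal, relative to the 75th percentile, ranged from 23.2 to 39.4 in Glis3KO2, against 24.0 to 99.1 in WT, where replicates 3 and 4 held 69.8 and 99.1. The 8 stromal markers (Col1a1, Dcn, Pdgfra and others) all averaged higher in Glis3KO2. Their sum ranged from 84.9 to 326 in Glis3KO2, against 34.9 to 157 in WT, with WT replicates 3 and 4 lowest at 37.6 and 34.9. The 6 peritubular and smooth muscle markers ran the same way, with 50.3 to 153 in Glis3KO2, against 31.1 to 95.3 in WT. All 6 macrophage markers averaged higher as well (14.9 to 37.6 in Glis3KO2, against 9.26 to 33.7 in WT). Endothelial markers split 3 to 3 (3.55 to 6.49 in Glis3KO2, against 2.30 to 5.40 in WT). Of 8 Sertoli markers 7 averaged lower (9.46 to 19.5 in Glis3KO2, against 11.2 to 24.3 in WT). Of 6 Leydig markers Insl3 was not measured, and the sum of the other 5 ranged from 16.6 to 20.2 in Glis3KO2, against 8.86 to 65.6 in WT, where replicate 1 was the highest and replicate 4 the lowest of all arrays. Markers of somatic cells were thus present beside those of germ cells in cells labelled as spermatogonial progenitors, and the groups overlapped in every one of these sums.

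No member of the family passed the test. At a limma adjusted p under 0.05, 0 of 37 members were called, and 0 (0%) of all 17508 genes tested. At an unadjusted p under 0.05, 4 members stood out, where 6.90% of all genes did. Of them, 3 were higher in Glis3KO2 (Adamts12, Mmp16 and Timp2), where 2.15% of all genes were, and 1 was lower (Mmp9), where 4.75% of all genes were. The 37 differences had a median of 0.28, beside -0.08 for all genes, and ran from -0.99 for Mmp9 to 1.19 for Mmp16. The mean was higher in Glis3KO2 for 23 members and lower for 14, where 40.8% of all genes averaged higher. With the normexp background correction and the 75th percentile the split turned to 17 higher and 20 lower, with a median of -0.02 beside -0.23 for all genes. The family stood 0.37 above the median of all genes as reported and 0.21 above it with that correction.

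**Figure D1:**
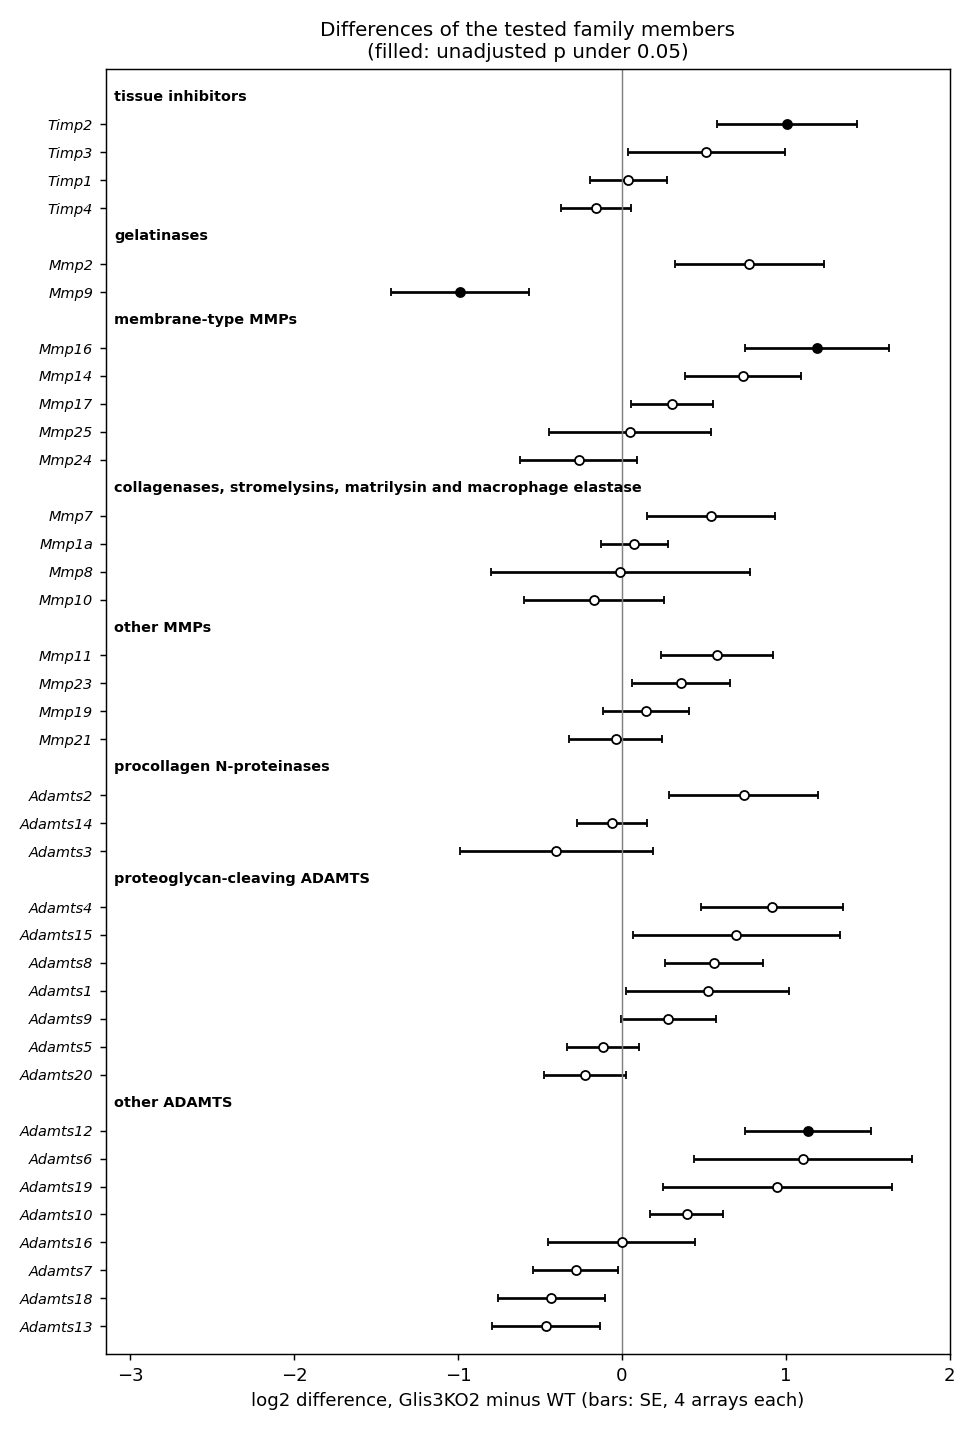
Differences in log2 signal, Glis3KO2 minus WT, for the 37 members tested, grouped by role, with points for the estimate and bars for the SE from limma. Estimates run from -0.99 (Mmp9) to 1.19 (Mmp16), and no member passed the adjusted threshold.

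The same-numbered samples were also compared as pairs, although no label ties a Glis3KO2 sample to a WT sample. The pairing was adopted from correlations in these same data, given with the processing below. Glis3KO2 lay above WT in 4 of 4 pairs for 10 members (27.0% of those tested, and 7.35% of all genes), namely Adamts2, Adamts10, Adamts12, Mmp2, Mmp7, Mmp11, Mmp14, Mmp16, Timp2 and Timp3. It lay below WT in 4 of 4 pairs for Mmp9 alone (2.70% of members, and 13.6% of all genes). With the replicate number as a block in the fit, 10 members had an unadjusted p under 0.05. Of these, 9 were higher (4.39% of all genes), Adamts2, Adamts4, Adamts12, Mmp2, Mmp7, Mmp11, Mmp14, Mmp16 and Timp2, and Mmp9 was lower (6.33% of all genes). None passed the adjusted threshold in that fit either, where the smallest adjusted p of a member was 0.422 (limma).

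WT replicates 3 and 4 held the 2 lowest of the 8 values for 7 of 37 members (18.9%, and 8.76% of all genes), Adamts1, Adamts2, Adamts10, Adamts12, Mmp2, Mmp14 and Timp2. They held the 2 highest for Adamts18 and Mmp9 (5.41%, and 15.2% of all genes). Without both arrays 0 of 37 members had an unadjusted p under 0.05, where 4.40% of all genes did, and the median difference of the family was 0.12, beside -0.03 for all genes. The stromal, smooth muscle, macrophage and endothelial sums given above were also low, and the germ cell sum high, on these 2 arrays. The part of these sums in the members' differences was not tested.

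**Figure D2:**
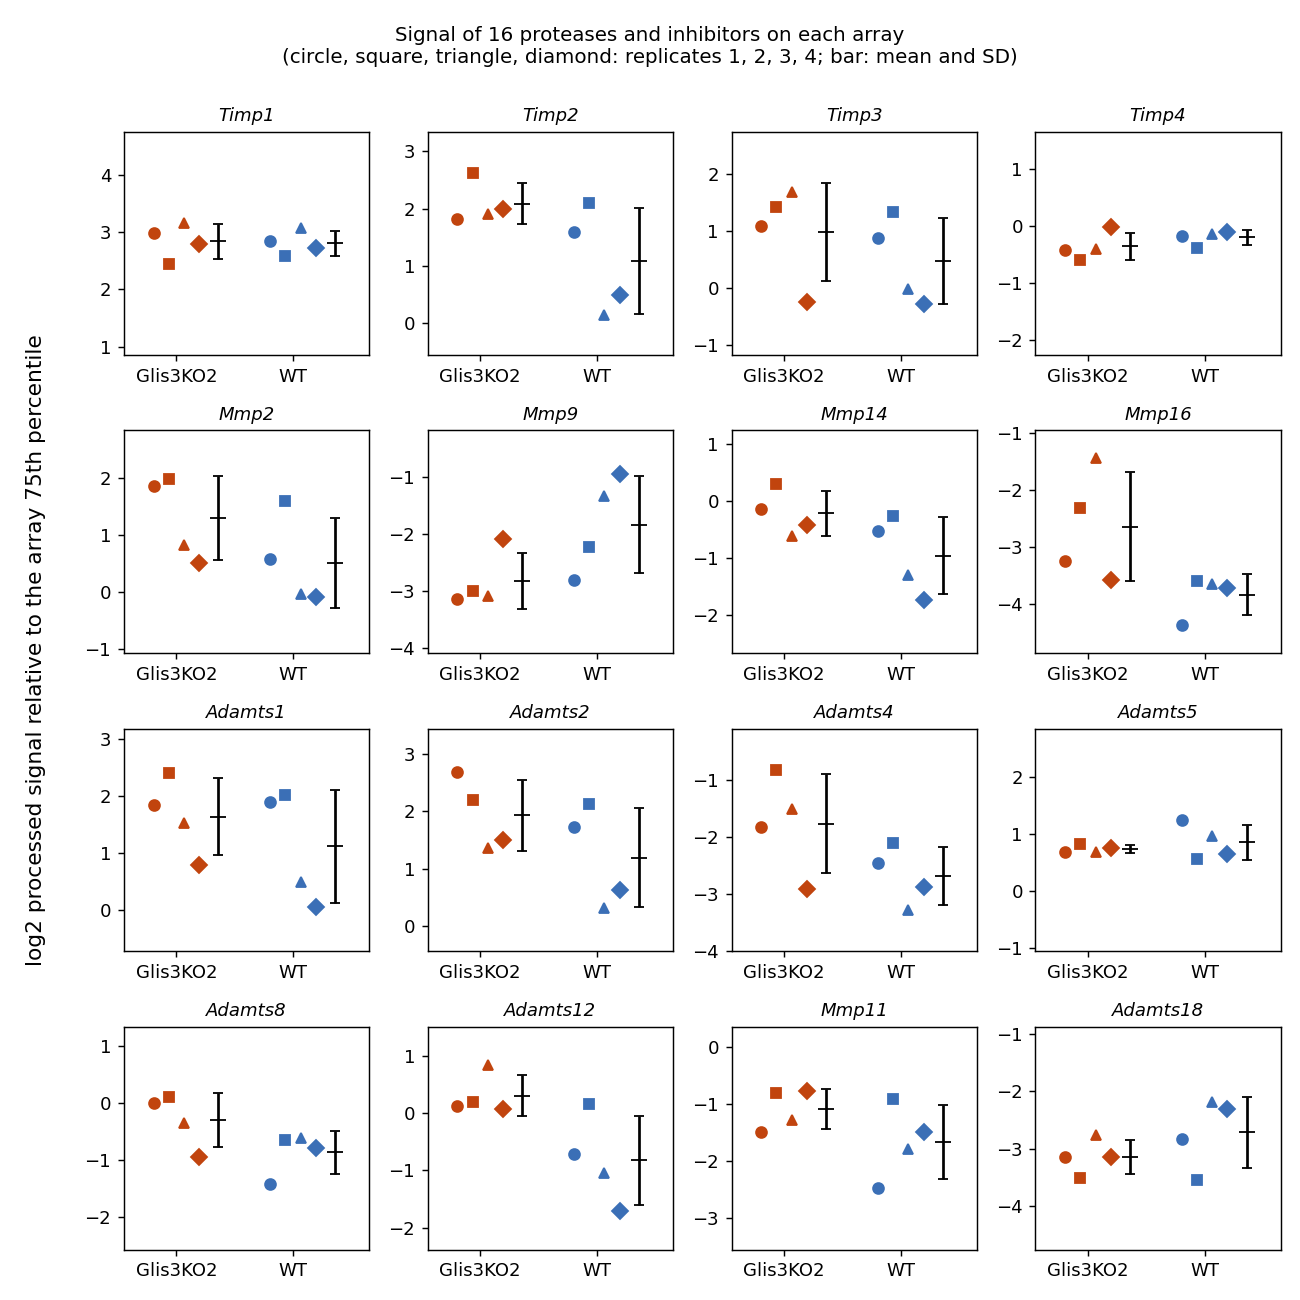
Levels (log2 signal over the 75th percentile) of 16 members, 1 panel each, with Glis3KO2 replicates 1 to 4 at the left and WT replicates 1 to 4 at the right, and bars for the mean and SD. Timp2, Mmp2, Mmp14 and Adamts2 have their 2 lowest points at WT replicates 3 and 4, while Mmp9 has its 2 highest there.

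The Mmp genes of chromosome 9 were set apart by location from the other family genes, because 4 of the 6 members too dim to test belong to that set. The sequences before the transcription starts were then described for both sets. RefSeq promoter windows on GRCm38.p6, from 250 bases before to 50 after the start, were found for 29 of the 43 genes on the array and 32 of the 46 in all. Mmp2, Mmp9 and Mmp16 are among the genes without a window. The windows were searched on both strands for the AP-1 motif TGANTCA, the TATA motif TATAAA and the GC box GGGCGG, and no matches of different motifs overlapped. Of all 32851 mouse windows, 7.81% held the AP-1 motif, 13.6% the TATA motif and 35.7% the GC box, with a median GC content of 52.7%. Capitals mark the matches in the windows of Timp2 (chr11:118355362-118355661, minus strand), Mmp14 (chr14:54431348-54431647, plus strand), Adamts12 (chr15:11064523-11064822, plus strand), Mmp13 (chr9:7272264-7272563, plus strand) and Mmp3 (chr9:7445572-7445871, plus strand), each written 5′ to 3′ along its gene. The first 3 are members with differences described below, and the last 2 are dim members of the chromosome 9 set.
Timp2: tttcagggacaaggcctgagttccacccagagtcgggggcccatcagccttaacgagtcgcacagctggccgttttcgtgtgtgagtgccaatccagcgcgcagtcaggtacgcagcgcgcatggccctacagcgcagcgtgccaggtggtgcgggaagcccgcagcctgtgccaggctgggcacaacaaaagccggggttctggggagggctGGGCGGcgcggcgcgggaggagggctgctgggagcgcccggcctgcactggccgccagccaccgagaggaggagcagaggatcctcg
Mmp14: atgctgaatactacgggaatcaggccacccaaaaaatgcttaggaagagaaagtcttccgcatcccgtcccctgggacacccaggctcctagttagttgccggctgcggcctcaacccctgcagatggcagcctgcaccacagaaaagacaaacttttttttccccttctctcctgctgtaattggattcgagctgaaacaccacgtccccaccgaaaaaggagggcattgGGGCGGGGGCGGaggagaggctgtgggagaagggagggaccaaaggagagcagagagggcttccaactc
Adamts12: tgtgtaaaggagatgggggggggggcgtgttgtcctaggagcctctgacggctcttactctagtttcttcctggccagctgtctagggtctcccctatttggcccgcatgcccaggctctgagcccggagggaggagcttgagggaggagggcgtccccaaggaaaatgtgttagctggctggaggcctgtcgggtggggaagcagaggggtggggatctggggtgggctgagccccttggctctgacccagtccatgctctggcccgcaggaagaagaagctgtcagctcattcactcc
Mmp13: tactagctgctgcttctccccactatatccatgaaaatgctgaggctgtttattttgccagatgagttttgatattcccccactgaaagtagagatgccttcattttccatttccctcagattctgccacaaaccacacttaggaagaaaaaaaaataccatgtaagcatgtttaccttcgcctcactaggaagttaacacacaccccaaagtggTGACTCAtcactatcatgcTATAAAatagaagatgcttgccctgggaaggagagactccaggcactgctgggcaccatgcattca
Mmp3: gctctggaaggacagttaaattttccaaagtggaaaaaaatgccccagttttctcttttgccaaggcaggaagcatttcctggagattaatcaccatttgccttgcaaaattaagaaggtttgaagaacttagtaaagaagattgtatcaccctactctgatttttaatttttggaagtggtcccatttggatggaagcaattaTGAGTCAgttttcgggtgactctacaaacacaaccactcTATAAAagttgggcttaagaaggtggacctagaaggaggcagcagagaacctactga

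Timp2 has 1 GC box, Mmp14 holds GC boxes in 1 unbroken run, and the Adamts12 window has none of the 3 motifs. Mmp13 and Mmp3 each have an AP-1 motif upstream of a TATA motif. Among the 10 Mmp genes of chromosome 9 with a window (12 windows), 8 held the AP-1 motif, 9 the TATA motif, 8 both, and 0 the GC box, with a GC content of 37.7% to 52.0%. Mmp8 and Mmp27 lacked the AP-1 motif. A gene was counted where any of its windows held the motif. Among the other 22 family genes with a window (23 windows), 0 held the AP-1 motif, 2 the TATA motif (Adamts1 and Mmp21) and 18 the GC box, with a GC content of 53.3% to 80.0%. A match is a run of letters and not a shown binding site.

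**Figure D3:**
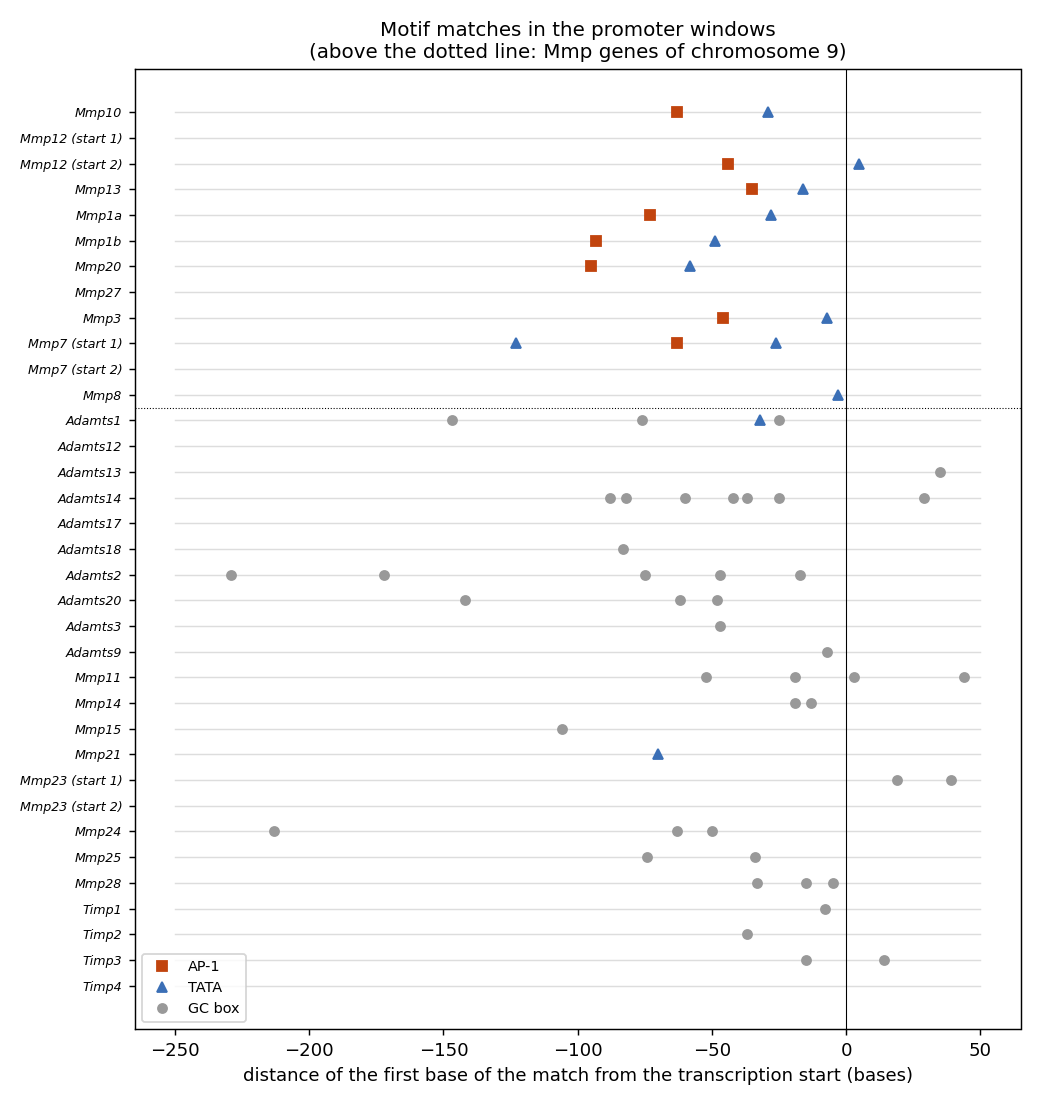
Positions of the 3 motifs in the promoter windows of the family, in bases from the transcription start (x axis), with 1 row per window and the Mmp genes of chromosome 9 set apart from the other genes. AP-1 motifs appear in 8 of the 10 chromosome 9 Mmp genes with a window and in 0 of the other 22 genes with a window.

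The chromosome 9 set held 4 of the 6 members that were too dim to test, and its other 4 genes on the array (Mmp1a, Mmp7, Mmp8 and Mmp10) were tested. All 4 dim genes held both the AP-1 and the TATA motif in a window, and so did Mmp1a, Mmp7 and Mmp10. Mmp12 and Mmp7 each had a further window that held neither motif. In the Mmp12 window with both, the TATA match lay after the transcription start. Mmp12, the macrophage elastase, Mmp13, a collagenase, and Mmp20, an enzyme of tooth enamel, were well above background on 0 of 8 arrays. Mmp3, a stromelysin, was so on 1 Glis3KO2 array and 1 WT array. Outside that set Mmp28 was also above background on 1 array of each genotype. Mmp15, a membrane-type MMP, was above background on 0 of 4 Glis3KO2 arrays and 2 of 4 WT arrays, and the groups overlapped. The mean of all 4 WT arrays, as read, was 1.12-fold a Glis3KO2 mean raised to background. In that mean each Glis3KO2 array entered with its reading, or with its lowest signal called above background where that was higher. The WT mean takes in arrays not well above background, so 1.12-fold is no lower limit of a difference.

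By the probe that stood for each gene, the 4 TIMPs had differences between -0.16 and 1.01, with Timp2 furthest from WT and Timp1 nearest to it. Timp2 inhibits MMPs and also takes part in activating the Mmp2 precursor on the cell surface. Its levels were 1.82, 2.63, 1.91 and 2.0 in Glis3KO2 replicates 1 to 4, against 1.59, 2.10, 0.14 and 0.48 in WT replicates 1 to 4. The low arrays were WT replicates 3 and 4, and the other 6 overlapped. Timp2 averaged 2.09 ± 0.37 in Glis3KO2 and 1.08 ± 0.92 in WT (SD, n = 4 each), a difference of 1.01 (SE 0.43), or 2.01-fold. The adjusted p was 0.697 (limma). The difference was 0.99 within slide 1 and 1.02 within slide 2, and 0.24 without WT replicates 3 and 4. Normexp gave 1.06 with the 75th percentile and 0.81 with quantile normalization.

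Timp3, the inhibitor bound to the matrix, followed the same outline less evenly. Its levels were 1.09, 1.43, 1.68 and -0.24 in Glis3KO2, against 0.88, 1.33, -0.02 and -0.28 in WT. The 3 lowest values were Glis3KO2 replicate 4 and WT replicates 3 and 4, and the groups overlapped. The difference was 0.51 (SE 0.48), and -0.11 without WT replicates 3 and 4.

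Timp1, a secreted inhibitor induced by cytokines in many tissues, was even across the arrays on its brighter probe. It stood at 2.98, 2.44, 3.16 and 2.79 in Glis3KO2, against 2.85, 2.58, 3.08 and 2.72 in WT. The groups covered almost the same range, and the difference of 0.04 (SE 0.23) had a 95% interval of -0.49 to 0.56. A second, dimmer Timp1 probe ranged from -3.28 to -2.40 in Glis3KO2 and -3.32 to -2.68 in WT, a difference of 0.28. Timp4, whose known expression is more restricted, had levels of -0.42, -0.59, -0.40 and -0.02 in Glis3KO2, against -0.17, -0.39, -0.14 and -0.11 in WT. The difference was -0.16 (SE 0.21), with a 95% interval of -0.63 to 0.32 and overlapping groups.

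The gelatinases Mmp2 and Mmp9, which degrade denatured collagen and basement membrane collagen, had differences of opposite sign. Mmp2 is made mainly by stromal cells, whereas Mmp9 is best known from neutrophils, macrophages and other migrating cells. Mmp2 had levels of 1.87, 1.98, 0.83 and 0.51 in Glis3KO2, against 0.58, 1.60, -0.04 and -0.08 in WT. WT replicates 3 and 4 were the lowest, and WT replicate 2 was higher than Glis3KO2 replicates 3 and 4. The means were 1.29 ± 0.74 in Glis3KO2 and 0.52 ± 0.79 in WT (SD, n = 4 each). The difference was 0.78 (SE 0.46), and 0.20 without WT replicates 3 and 4. Normexp gave 0.86 with the 75th percentile and 0.60 with quantile normalization.

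Mmp9 was the member with the lowest difference. Its brighter probe had levels of -3.14, -2.99, -3.08 and -2.08 in Glis3KO2, against -2.81, -2.23, -1.34 and -0.96 in WT. Glis3KO2 replicates 1 to 3 lay below all WT arrays, and replicate 4 lay among the WT values, so the groups overlapped. The means were -2.82 ± 0.50 in Glis3KO2 and -1.83 ± 0.84 in WT (SD, n = 4 each). The difference of -0.99 (SE 0.42) was a 1.98-fold lower signal, with an adjusted p of 0.697 (limma). It was -1.03 within slide 1 and -0.94 within slide 2, and -0.30 without WT replicates 3 and 4. Normexp gave -1.03 with the 75th percentile and -0.56 with quantile normalization.

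A second, dimmer probe for Mmp9 was printed in 10 spots. Averaged over spots, it read -5.04, -4.62, -4.16 and -3.93 in Glis3KO2, against -3.65, -3.46, -3.75 and -3.01 in WT. Here all 4 Glis3KO2 arrays lay below all 4 WT arrays, although the probe was well above background on only 3 of the 4 Glis3KO2 arrays. The probe's difference was -0.97, and those of its 10 spots lay between -1.19 and -0.70, with the groups apart on 5 of them. The SD among the spots of 1 array was 0.11 to 0.40. Spots share the sample and are no replicates of the genotype.

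**Figure D4:**
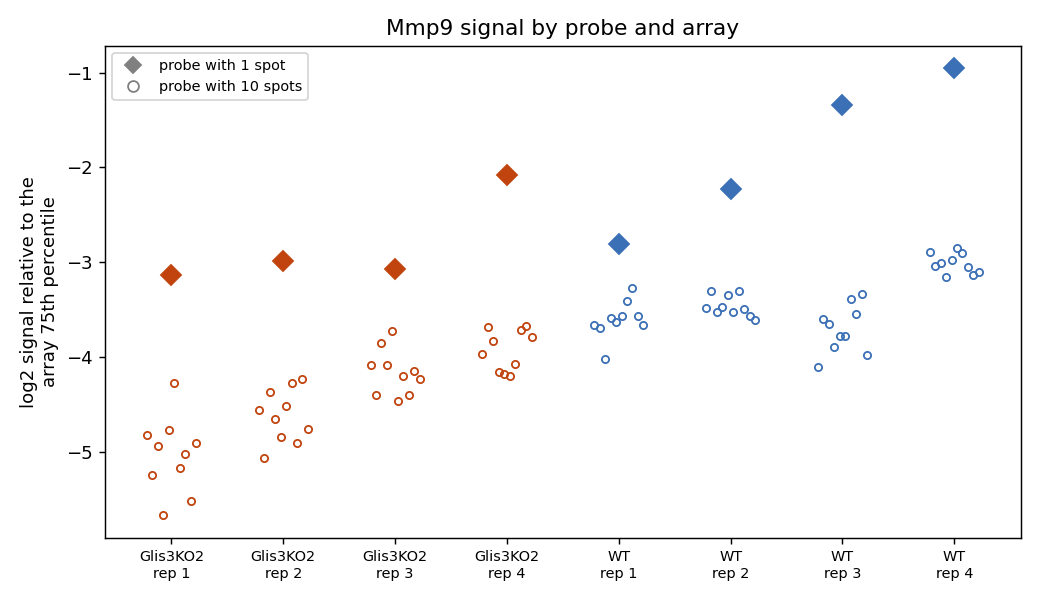
Mmp9 levels (log2 signal over the 75th percentile) by its 2 probes, with Glis3KO2 replicates 1 to 4 left of WT replicates 1 to 4. Diamonds show the brighter probe, which has 1 spot, and open circles the 10 spots of the dimmer probe on each array. Averaged over spots (means not drawn), the dimmer probe's Glis3KO2 values (-5.04 to -3.93) lie below its WT values (-3.75 to -3.01).

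Of the 6 membrane-type MMPs, which are anchored at the cell surface, 5 were tested, and 4 averaged higher in Glis3KO2. Mmp14, the main activator of the Mmp2 precursor, had levels of -0.14, 0.30, -0.60 and -0.42 in Glis3KO2, against -0.53, -0.26, -1.30 and -1.72 in WT. WT replicates 3 and 4 were the lowest, and the other 6 arrays overlapped. The difference was 0.74 (SE 0.36), 0.79 by a second probe, 0.48 without WT replicate 4, and 0.18 without WT replicates 3 and 4.

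Mmp16, which also activates the Mmp2 precursor, was the sole member whose chosen probe kept the groups apart. Such a gap with Glis3KO2 on top was seen in 0.902% of all genes, and with Glis3KO2 below in 0 members and 2.60% of all genes. Its levels were -3.23, -2.31, -1.44 and -3.57 in Glis3KO2, against -4.37, -3.60, -3.63 and -3.71 in WT. Glis3KO2 replicates 2 and 3 stood well above the rest, while replicate 4 was close to the WT arrays. The means were -2.64 ± 0.96 in Glis3KO2 and -3.83 ± 0.36 in WT (SD, n = 4 each), a difference of 1.19 (SE 0.44) or 2.28-fold, with an adjusted p of 0.697 (limma). It was -0.10 with normexp and the 75th percentile, 0.48 with normexp and quantile normalization, and 0.79 without Glis3KO2 replicate 3.

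The other Mmp16 probe was above background on all 4 Glis3KO2 arrays and on 1 of 4 WT arrays. It read -3.09, -2.52, -3.91 and -3.17 in Glis3KO2, against -5.51, -3.35, -5.32 and -4.93 in WT. The groups overlapped at WT replicate 2, and the other 3 WT values were not well above background. No difference is drawn from this probe alone. The mean over both probes, which takes in those dim values, gave 1.40. Glis3KO2 replicate 3 was the highest of its group on the chosen probe and the lowest on this one. The remaining members of this class were Mmp17 at 0.31 (SE 0.25), Mmp24 at -0.26 (SE 0.36) and Mmp25 at 0.05 (SE 0.49).

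Of the secreted collagenases, stromelysins and matrilysin, 4 were tested and none had an unadjusted p under 0.05. Mmp7, the matrilysin, differed by 0.55 (SE 0.39), with Glis3KO2 above WT in 4 of 4 pairs. After normexp with the 75th percentile its difference was -0.59, and with 1 array left out it lay between 0.29 and 0.85. Mmp1a, an interstitial collagenase, differed by 0.08 (SE 0.20), Mmp8, the neutrophil collagenase, by -0.01 (SE 0.79), and the stromelysin Mmp10 by -0.17 (SE 0.43). A second Mmp1a probe gave -0.60, opposite in sign.

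Among the other MMPs, Mmp11, a stromal enzyme that is activated inside the cell, had levels of -1.48, -0.80, -1.27 and -0.76 in Glis3KO2, against -2.47, -0.90, -1.78 and -1.48 in WT. WT replicate 1 was the lowest and WT replicate 2 lay within the Glis3KO2 range, with a difference of 0.58 (SE 0.34). It was 0.14 with normexp and the 75th percentile, 0.28 with normexp and quantile normalization, and 0.31 without WT replicate 1. Mmp23, an MMP of reproductive tissues, had -1.99, -1.11, -1.62 and -1.99 in Glis3KO2, against -2.28, -1.45, -2.46 and -1.96 in WT. The groups overlapped, and the difference was 0.36 (SE 0.30), or -0.02 with normexp and the 75th percentile. Mmp19 differed by 0.14 (SE 0.26) and Mmp21 by -0.04 (SE 0.28).

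The procollagen N-proteinases Adamts2, Adamts3 and Adamts14 remove the amino-terminal propeptide of fibrillar collagens. Adamts2 had levels of 2.69, 2.19, 1.36 and 1.50 in Glis3KO2, against 1.73, 2.12, 0.31 and 0.62 in WT. WT replicates 3 and 4 were low, and WT replicates 1 and 2 lay within the Glis3KO2 range. Its difference was 0.74 (SE 0.45), and 0.51 and 0.32 by its other probes. It was 0.45 without WT replicate 3, 0.49 when Glis3KO2 replicate 1 was left out, and 0.01 without WT replicates 3 and 4. Normexp gave 0.86 with the 75th percentile and 0.60 with quantile normalization. Adamts3 differed by -0.40 (SE 0.59) and Adamts14 by -0.06 (SE 0.21), and a second Adamts14 probe gave 0.22, opposite in sign.

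The 7 ADAMTS proteases that cleave proteoglycans such as versican and aggrecan averaged higher in Glis3KO2 in 5 cases, and none had an unadjusted p under 0.05. Adamts4, an aggrecanase, had levels of -1.82, -0.83, -1.51 and -2.91 in Glis3KO2, against -2.46, -2.11, -3.29 and -2.87 in WT. Glis3KO2 replicates 1 to 3 lay above all WT arrays, and Glis3KO2 replicate 4 lay among them. The difference was 0.92 (SE 0.43). It was 0.20 with normexp and the 75th percentile, 0.55 with normexp and quantile normalization, 0.52 without WT replicates 3 and 4, and 0.60 with Glis3KO2 replicate 2 left out.

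Adamts8 had -0.01, 0.11, -0.35 and -0.96 in Glis3KO2, against -1.42, -0.65, -0.61 and -0.78 in WT. The pattern was alike, with Glis3KO2 replicates 1 to 3 above all WT arrays and replicate 4 below 3 of them. The difference was 0.56 (SE 0.30), and 0.74 by a second probe, but 0.25 with normexp and the 75th percentile and 0.32 with normexp and quantile normalization.

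Adamts1, which cleaves versican and is needed for normal ovarian function, stood at 1.85, 2.40, 1.53 and 0.79 in Glis3KO2, against 1.90, 2.02, 0.50 and 0.06 in WT. WT replicates 1 and 2 lay within the Glis3KO2 range, and WT replicates 3 and 4 were low. The difference of 0.52 (SE 0.50) became -0.32 without those 2 arrays, and a second probe gave 0.07.

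Adamts5, the other main aggrecanase, had 0.68, 0.83, 0.69 and 0.75 in Glis3KO2, against 1.24, 0.57, 0.96 and 0.65 in WT. The Glis3KO2 values lay inside the WT range, with a difference of -0.12 (SE 0.22) and a 95% interval of -0.61 to 0.38, but a second, dimmer probe gave 0.68. Adamts20, known in mice for its part in the migration of pigment cells, had 3.41, 2.86, 3.62 and 3.18 in Glis3KO2, against 3.82, 3.13, 3.56 and 3.46 in WT. The groups overlapped and the difference was -0.22 (SE 0.25), while its other probes gave 0.09 and -0.36. Adamts9 differed by 0.28 (SE 0.29), and by 0.10 without WT replicate 4. A second Adamts9 probe gave 0.74, and the mean over both probes gave 0.51. Adamts15 differed by 0.70 (SE 0.63), by 1.37 without Glis3KO2 replicate 4, by 0.39 without Glis3KO2 replicate 2, and by 0.25 with normexp and the 75th percentile.

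Among the other ADAMTS genes, Adamts12, a protease of cartilage oligomeric matrix protein, had the smallest p of the family. Its levels were 0.12, 0.21, 0.84 and 0.07 in Glis3KO2, against -0.71, 0.17, -1.04 and -1.72 in WT. WT replicates 1, 3 and 4 lay below all Glis3KO2 arrays, and WT replicate 2 lay within their range. It averaged 0.31 ± 0.36 in Glis3KO2 and -0.82 ± 0.78 in WT (SD, n = 4 each), a difference of 1.13 (SE 0.38) or 2.20-fold. The adjusted p was 0.697 (limma), a second probe gave 0.31, the mean over both probes gave 0.72, and without WT replicates 3 and 4 the difference was 0.58.

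Adamts7, its closest relative, was on the other side of 0. It stood at -2.18, -2.17, -1.73 and -2.34 in Glis3KO2, against -1.46, -2.35, -1.60 and -1.89 in WT. The groups overlapped and the difference was -0.28 (SE 0.26), with -0.58 by a second probe. Adamts18 had -3.16, -3.51, -2.77 and -3.16 in Glis3KO2, against -2.83, -3.55, -2.18 and -2.30 in WT. The highest arrays were WT replicates 3 and 4, and the difference of -0.43 (SE 0.33) became 0.04 without them.

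Adamts13, which cuts von Willebrand factor in blood, was above background on 2 arrays of each genotype. Its levels were -4.92, -5.38, -4.57 and -4.36 in Glis3KO2, against -4.96, -3.66, -4.27 and -4.48 in WT. WT replicate 2 was the highest and the groups overlapped, with a difference of -0.46 (SE 0.33), or -0.24 without WT replicate 2. Adamts10, a protease linked to fibrillin microfibrils, differed by 0.39 (SE 0.22), with Glis3KO2 above WT in 4 of 4 pairs. Adamts6 differed by 1.11 (SE 0.67) but was above background on 3 Glis3KO2 arrays and 1 WT array. That difference was 1.76 without Glis3KO2 replicate 4, 0.61 without Glis3KO2 replicate 2 and -0.44 with normexp and the 75th percentile. Adamts19 differed by 0.95 (SE 0.70), by 1.57 without Glis3KO2 replicate 4, by 0.41 without WT replicate 3, and by 0.25 with normexp and the 75th percentile. Adamts16 differed by -0.0027 (SE 0.45).

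Genes around the family were examined through 3 lists, with the 2 of smallest p in each direction named. Across all genes tested, 40.8% averaged higher in Glis3KO2, and 2.15% were higher and 4.75% lower at an unadjusted p under 0.05. Of 18 regulators of matrix proteases 15 were tested and 0 passed, with 11 averaging higher, 4 lower, and a median difference of 0.14. At an unadjusted p under 0.05, 0 of these regulators were higher and 1 was lower, Plg (plasminogen). Plg differed by -0.60 (SE 0.26), or -0.13 with normexp and quantile normalization. With the replicate block 1 was higher, Reck (4.39% of all genes), and 1 was lower, again Plg (6.33% of all genes). Reck, a membrane-bound inhibitor of several MMPs, differed by 0.65 (SE 0.45), by 0.30 with Glis3KO2 replicate 1 left out, and by 0.12 without WT replicates 3 and 4. Serpine2, an inhibitor of serine proteases, differed by 0.73 (SE 0.48), and by 0.30 without WT replicate 1. The proprotein convertase Pcsk6 differed by -0.49 (SE 0.50), and by -0.12 without WT replicate 3.

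All 15 genes of the list of ADAMTS-like proteins and proteoglycan substrates were tested and 0 passed, also at an unadjusted p under 0.05, with 7 higher, 8 lower and a median of -0.05. Vcan, the gene of the proteoglycan versican that Adamts1, Adamts4 and Adamts5 cleave, had levels of 2.96, 3.12, 2.87 and 0.38 in Glis3KO2, against 1.28, 2.59, -0.47 and -0.78 in WT. WT replicates 3 and 4 were the 2 lowest arrays, Glis3KO2 replicate 4 was far below the other Glis3KO2 arrays, and the groups overlapped. The difference was 1.68 (SE 0.82), and 0.40 without WT replicates 3 and 4. Its unadjusted p was under 0.05 in some other fits but not in all. Among these were the replicate block, array weights (2.31), slide 1 alone (2.51), and normexp with the 75th percentile (1.67). Slide 2 alone (0.85) and normexp with quantile normalization (1.40) did not reach it. Thsd4, which binds fibrillin, differed by 0.69 (SE 0.46), and by 0.08 without WT replicates 3 and 4. Bcan (brevican) differed by -0.69 (SE 0.38), or between -1.07 and -0.44 with 1 array left out, and Adamtsl3 by -0.34 (SE 0.21). Of 19 other matrix and shedding proteases 16 were tested and 0 passed, also at an unadjusted p under 0.05, with 11 higher, 5 lower and a median of 0.16. Bmp1, the procollagen C-proteinase, differed by 0.57 (SE 0.26), Fap, a serine protease of activated fibroblasts, by 0.94 (SE 0.49), or -0.06 with normexp and the 75th percentile, Adam17, the tumour necrosis factor convertase, by -0.20 (SE 0.22) and Adam33 by -0.50 (SE 0.57).

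**Figure D5:**
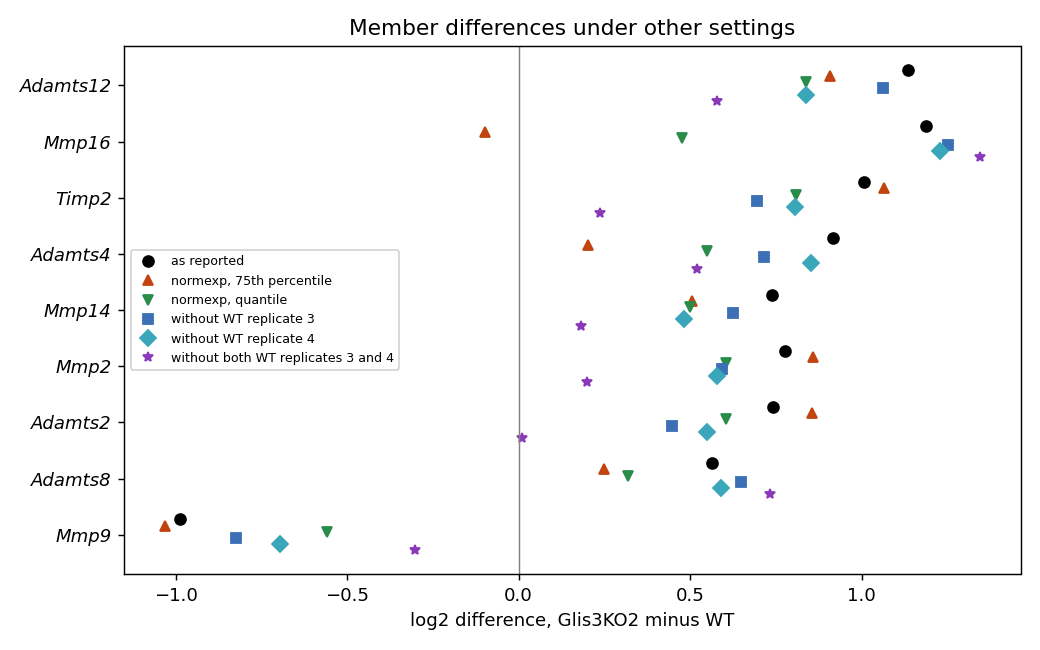
Difference in log2 signal, Glis3KO2 minus WT, for 9 members as reported and under 5 other settings, 1 symbol each. Mmp16 runs from -0.10 with normexp and the 75th percentile to 1.34 without both WT replicates 3 and 4, and Timp2, Mmp2, Mmp14 and Adamts2 lie between 0.01 and 0.24 without those 2 arrays.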

How the data were processed

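RNA was measured on 8 one-colour Agilent arrays, 4 Glis3KO2 and 4 WT. Per the file headers, the deposited intensity of each spot is the linear, background-subtracted signal of Agilent Feature Extraction 12.0.0.7 (version 12 per the submitters' processing notes). Median intensities of spot and local background, and flags for background, saturation and outliers, were deposited beside it. The deposited value table equalled that intensity on 100% of spots of every array, linear and not centred, with column medians of 67.2 to 143.6, and is no independent normalization.

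From these, levels were computed as log2 of the intensity minus the 75th percentile of all non-control spots of that array. Outlier spots were dropped (73 to 109 per array), 0 member spots were saturated, and spots of a probe were averaged. Probes were named by unversioned RefSeq accession in a gene table of GRCm38.p6: 28223 of 41174 matched 1 gene, 0 matched several and 12951 stayed unnamed. A probe was kept where at least 4 of 8 arrays put it well above background, and the one of highest mean stood for its gene. This left 17508 genes. Between 86.0% and 90.3% of spots per array were well above background, and precision is limited by how few arrays there were.

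The test was limma 3.58.1 under R 4.3.3 (lmFit, eBayes, genotype alone), Benjamini-Hochberg adjusted over all genes at 0.05. The method was tested on simulated data. The members and lists were chosen with earlier results of these data known. Values are given per array for the inhibitors, the gelatinases, Mmp11, Mmp14, Mmp23, Adamts1, Adamts2 and Adamts5, for the 6 members of smallest p in each direction, and for any whose groups lie apart. Of the 37 members tested, 19 had more than 1 kept probe, and these differed in sign for Mmp1a, Adamts5, Adamts14 and Adamts20.

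Replicates 1 and 3 of both genotypes lay on slide 1 and replicates 2 and 4 on slide 2. WT arrays were at positions 1 and 2 and Glis3KO2 arrays at positions 3 and 4, so position and genotype cannot be told apart. Deviations of same-numbered arrays from their group means correlated across genes at 0.16, 0.34, 0.18 and 0.13, all over the 0.1 set for pairing, so replicate number was also fitted as a block. Alternatives were other background corrections (normexp, offset 50, on the median spot signal in place of the planned mean), quantile normalization, filters, probe rules, slide, array weights and arrays left out.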

Additional observations from a re-analysis of the deposited data

Results flagged for a closer look

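In 78 groups of 4 values examined, 1 value lay far from the other 3 in 4 cases, and chance alone gives about 3.9. Adamts16, a protease known from the developing gonad, was at 1.12 in Glis3KO2 replicate 4, where the other Glis3KO2 arrays lay between 0.02 and 0.09. It was also far off in WT replicate 3, at 1.68, where the other WT arrays lay between -0.31 and -0.01. A second, dimmer Adamts16 probe was highest on the same arrays of each group, at -1.83 in Glis3KO2 replicate 4 and -1.42 in WT replicate 3. Mmp16 was low in WT replicate 1 at -4.37, beside -3.71 to -3.60 on the other WT arrays. Mmp9 was high in Glis3KO2 replicate 4 at -2.08, beside -3.14 to -2.99 on the other Glis3KO2 arrays.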

How the results depend on the processing

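Members passing at an adjusted p under 0.05 stayed at 0 in every setting, with limma in each, and genes passing stayed at 0 except for 1 (Gm16702) with quantile normalization of the log2 signal. Members at an unadjusted p under 0.05 numbered 4 as reported (all genes 6.90%) and 10 with the replicate block (10.7%). The block changed no call at the adjusted threshold. Such members numbered 6 with normexp and the 75th percentile (9.36%), and 5 with normexp and quantile normalization (6.17%). They numbered 8 with array weights (14.5%), 0 within slide 2 (2.82%) and 0 without both WT replicates 3 and 4 (4.40%). With 1 array left out they ranged from 1 to 10: 3, 2, 1 and 9 without Glis3KO2 replicates 1 to 4 (all genes 5.77%, 4.99%, 5.59% and 7.67%), and 4, 10, 2 and 2 without WT replicates 1 to 4 (8.31%, 13.7%, 3.79% and 4.83%). Adamts12 was among them in all 8 of these fits, Mmp16 in 5, and Timp2 and Mmp9 in 3 each. Over all genes the unadjusted split was 377 higher and 831 lower as reported, 438 and 1200 with normexp and the 75th percentile, 465 and 616 with normexp and quantile normalization, 437 and 681 with quantile normalization, 769 and 1108 with the replicate block, 882 and 1651 with array weights, and 359 and 411 without both WT replicates 3 and 4.

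The family's median of 0.28 became -0.019 with normexp and the 75th percentile and 0.075 without the filter on dim probes, where 43 members enter, 0.15 with normexp and quantile normalization, 0.17 within slide 1, and 0.12 without both WT replicates 3 and 4. With 1 array left out it ranged from 0.17 (without WT replicate 4) to 0.32 (without WT replicate 1), with 0.19 without Glis3KO2 replicate 2. Without a turn of sign, values moved by over 1.5 times for 17 members with normexp and the 75th percentile, 13 with normexp and quantile normalization, 19 within slide 1, 16 within slide 2, 18 without both WT replicates 3 and 4, and 7 to 17 with 1 array left out. Signs were kept in 710 of 773 combinations of member and alternative, and in every alternative for 16 of 37 members, Mmp2, Mmp9, Mmp11, Mmp14, Mmp17, Timp2, Timp4, Adamts2, Adamts4, Adamts7, Adamts8, Adamts10, Adamts12, Adamts13, Adamts19 and Adamts20. That count takes in the replicate block, the slide block and a trended eBayes fit, which cannot change a difference in this balanced design. It also takes in the filters on background, which changed no member's difference. Such combinations say nothing about how stable a sign is. With normexp and the 75th percentile signs turned for Adamts6 (-0.44), Adamts16 (0.023), Mmp1a (-0.13), Mmp7 (-0.59), Mmp16 (-0.10), Mmp19 (-0.47), Mmp23 (-0.019), Mmp25 (-0.68), Adam17 (0.059) and Fap (-0.058). With normexp and quantile normalization they turned for Adamts16 (0.0054), Mmp8 (0.054), Mmp10 (0.088), Mmp25 (-0.013) and Adamtsl3 (0.038), and with quantile normalization for Mmp8 (0.13) and Mmp10 (0.031). The mean over a gene's probes turned Adamts5 (0.28), Adamts14 (0.078) and Mmp1a (-0.26), and array weights Mmp8 (0.38) and Mmp21 (0.036). Within slide 1 Adamts3 (0.12), Mmp21 (0.17) and Mmp25 (-0.53) turned. Within slide 2 Adamts5 (0.18), Adamts15 (-0.20), Adamts16 (0.77), Mmp1a (-0.014), Mmp8 (0.85), Mmp10 (0.36), Mmp19 (-0.32), Mmp24 (0.38), Timp1 (-0.033) and Pcsk6 (0.47) did. Without both WT replicates 3 and 4 the turned values were Adamts1 (-0.32), Adamts9 (-0.0011), Adamts14 (0.0062), Adamts16 (0.36), Adamts18 (0.043), Mmp10 (0.016), Mmp21 (0.083), Mmp25 (-0.53), Timp3 (-0.11) and Pcsk6 (0.11). With 1 array left out the ranges that crossed 0 were -0.16 to 0.040 for Adamts14, -0.27 to 0.45 for Adamts16, -0.79 to 0.076 for Adamts3, -0.21 to 0.013 for Adamts5, -0.0069 to 0.14 for Mmp1a, -0.48 to 0.63 for Mmp8, -0.49 to 0.27 for Mmp10, -0.042 to 0.28 for Mmp19, -0.24 to 0.17 for Mmp21, -0.42 to 0.037 for Mmp24, -0.36 to 0.44 for Mmp25, -0.068 to 0.17 for Timp1 and -0.76 to 0.17 for Adam33. The cause was not tested. Adamts6, Adamts13, Mmp10 and Mmp25 were dim on some arrays, and what this did to their values was not tested. Mmp7, Mmp16 and Mmp19, which turned with normexp and the 75th percentile, were well above background on all 8 arrays.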
